A study of Mus musculus with 12 samples.

Results

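The effect of losing Prkch on elicited peritoneal macrophages was read from 6 of the 12 arrays in the series, taken by their tissue label. Of these, 3 arrays came from Prkch-/-Apoe-/- mice, called knockouts here, and 3 from Apoe-/- mice, called controls, so every animal lacked Apoe. All were C57BL/6J females on regular diet from a stock with over 12 generations of backcrossing, and the cells received no further stimulation. The macrophages were elicited with thioglycolate, an irritant that draws monocytes and macrophages into the peritoneal cavity. Replicates 1, 2 and 3 were aged 18, 17 and 27 weeks in both genotypes. The labels call the arrays biological replicates, but they give neither the number of mice behind an array nor the part of Prkch that was removed, and they name no promoter or Cre that would limit the loss to macrophages. RNA of whole cell preparations was measured, so fewer cells of a type and less RNA per cell cannot be told apart.

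Prkch encodes protein kinase C eta, an isoform that is activated by diacylglycerol without calcium and is best known from epithelia and lymphocytes. In macrophages the protein kinase C family couples surface receptors to adhesion, cytokine production and lipid handling. Apoe encodes apolipoprotein E, which macrophages secrete and which carries cholesterol to the liver, and mice without it develop atherosclerosis, a disease in which macrophages take up lipoprotein lipid in the vessel wall.

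Exact ties between deposited values split the 6 arrays into sets, and all differences below were taken within them. Set 1 held the first controls, replicates 1 and 2, with knockout replicate 1. Set 2 held control replicate 3 with the other knockouts, replicates 2 and 3. Of 35557 probe sets, 14268 (40.1%) had the same value on all 3 arrays of set 2, against 8 in set 1, and pairs across the sets shared 0 to 3 values. Knockout replicate 2, aged 17 weeks, was therefore compared with a control aged 27 weeks. That array also stood apart, at 36.8 on the first principal component (56.5% of the variance) where the other 5 lay between -18.8 and 3.40, and values without it are given where they turn a result described here or move it by over 1.5 times. Of 17 macrophage identity genes on the array, all 17 passed the filter on dim genes. Their mean log2 level lay between 10.76 and 10.96 on 5 arrays and at 11.34 on knockout replicate 2, and Adgre1, which encodes the macrophage antigen F4/80, lay between 11.84 and 12.11 on every array.

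Prkch was lower in the knockouts of both sets. Its brighter probe set had log2 values of 9.94 and 9.86 in the controls of set 1 against 9.36 in their knockout. In set 2 the control had 9.31, against 8.79 and 8.87. Each knockout array lay below the controls of its own set, while knockout replicate 1 lay above the control of the other set. The difference was -0.51 ± 0.05 (SE, n = 3 and 3), or 70.1% of the control level. Its unadjusted p was the smallest of all 15039 genes tested, and the Benjamini-Hochberg adjusted p of limma was 0.932. An exact permutation test of the genotypes within the sets gave a two-sided p of 0.111, the smallest that its 9 arrangements allow. The dimmer probe set of the gene differed by -0.24. Signal remained in the knockouts, and a probe set outside the removed part does not check the genotype.

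No gene passed the threshold, an adjusted p under 0.05, in either direction (0% of 15039; limma, smallest adjusted p = 0.932). Without adjustment, 205 genes (1.36%) had a limma p under 0.05, with 83 of them higher (0.552%) and 122 lower (0.811%) in the knockouts. The genotypes did not overlap over the 6 arrays in 339 genes (2.25%), of which 98 were higher (0.652%) and 241 lower (1.6%). Within both sets at once they did not overlap in 1165 genes (7.75%), of which 558 were higher (3.71%) and 607 lower (4.04%). Most differences were small, with 71.7% of genes under 0.1 log2 units and 2 genes at 1 or above. The median gene differed by 0.01, with 56.3% of genes above 0 and 43.7% below. In set 2 the difference was exactly 0 for 6192 genes (41.2%), because their values there were tied. Such a gene cannot be without overlap within both sets, so ties lower the shares of 3.71% and 4.04%. Another 24.9% of genes had 2 identical values in set 2. Where the control shared its value with a knockout, the gene cannot be without overlap within both sets either. The share of genes tied on all arrays of set 2 is given below for each list set against them, and leaves such pairs out.

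The genes named next are the 12 in each direction with the largest differences among those with an unadjusted p under 0.05. They are described as higher or lower, since none passed the threshold. Arg2, the mitochondrial arginase that turns arginine into ornithine and urea, had the largest difference of any gene. It had log2 values of 6.70, 7.10 and 7.01 in the controls and 8.06, 10.42 and 9.15 in the knockouts. Every knockout lay above every control, and knockout replicate 2 was the highest. The difference was 1.97 ± 0.53 (SE, n = 3 and 3; limma, unadjusted p = 0.0148), with 1.17 in set 1, 2.78 in set 2 and 1.58 without knockout replicate 2. The other gene at 1 or above was Bex1, named after its value was seen, at -1.41 ± 0.89 and -0.71 without knockout replicate 2.

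Scd2, a stearoyl-CoA desaturase that makes monounsaturated fatty acids, had 9.14 and 8.96 in the controls of set 1 against 9.73 in their knockout. In set 2 it had 8.07 in the control against 9.31 and 8.83. Both sets showed the knockouts above their controls, by 0.68 and 1.00, and the fit gave 0.84 ± 0.17 (SE, n = 3 and 3; limma, unadjusted p = 0.0045). Sqle, the squalene epoxidase of cholesterol synthesis, had 8.70 and 8.62 against 9.21 in set 1 and 7.82 against 8.04 and 8.62 in set 2. Its difference was 0.53 ± 0.17, and the sets gave 0.54 and 0.52.

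Prkcb, the classical isoform protein kinase C beta, had 9.97 and 9.69 in the controls of set 1 against 10.06 in their knockout, and 9.04 in the control of set 2 against 9.66 and 9.75. The difference was 0.45 ± 0.13, and larger in set 2 (0.67) than in set 1 (0.24). Fgr, a Src family kinase of myeloid cells, was higher by 0.36 ± 0.12, with 0.23 and 0.48 in the sets. Slc38a6, of an amino acid transporter family, had 9.65, 9.50 and 9.45 in controls and 9.95, 10.16 and 9.90 in knockouts, with no overlap and a difference of 0.47 ± 0.10. Slc44a1, a choline transporter, was higher by 0.40 ± 0.14, and Tmem167, which encodes a small Golgi membrane protein, by 0.48 ± 0.10, each also without overlap. The dimmer probe set of Slc44a1 differed by 0.17 and overlapped, with 9.81, 9.77 and 9.67 in controls and 10.08, 9.63 and 9.82 in knockouts. That of Tmem167 differed by 0.35, without overlap. The remaining higher genes were Mettl4 (0.35), Tmem29 (0.32), Garre1 (0.30) and Ice1 (0.29). Of the 12 higher genes, 5 had no overlap over all 6 arrays, against 0.652% of all genes. The 12 were chosen by p and size from the same values, which favours this.

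Among the lower genes, Gadd45a, a growth arrest and DNA damage gene, had 9.65, 9.65 and 10.13 in controls and 9.26, 8.70 and 9.50 in knockouts. All knockouts lay below all controls, by -0.71 ± 0.27 in the fit (SE, n = 3 and 3; limma, unadjusted p = 0.0498), and the difference was larger in set 2 (-1.03) than in set 1 (-0.39). Gas6, a ligand of the receptor kinases with which macrophages clear dying cells, had 8.99, 8.75 and 8.55 in controls. On the knockout arrays it had 8.25, 8.26 and 8.26, the last a tied pair, for a difference of -0.46 ± 0.11. Pdgfc, a platelet-derived growth factor, had 7.67, 7.90 and 8.05 in controls against 7.37, 7.53 and 7.24 in knockouts, and differed by -0.54 ± 0.12. Adcy3, an adenylate cyclase, was lower by -0.54 ± 0.19, and Tm4sf1, a tetraspan membrane protein, by -0.49 ± 0.15. Ndufa4 and Atp5k, described with the respiratory chain below, also belong here, as do Anapc13, a subunit of the anaphase-promoting complex (-0.39), Zfp30 (-0.50), Riiad1 (-0.50), Grcc10 (-0.51) and Tceal9 (-0.43). Of the 12 lower genes, 11 had no overlap over the 6 arrays, Tceal9 being the exception. Among all genes the share was 1.6%, but these 12 too were chosen by p and size from the same values.

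**Figure D1:**
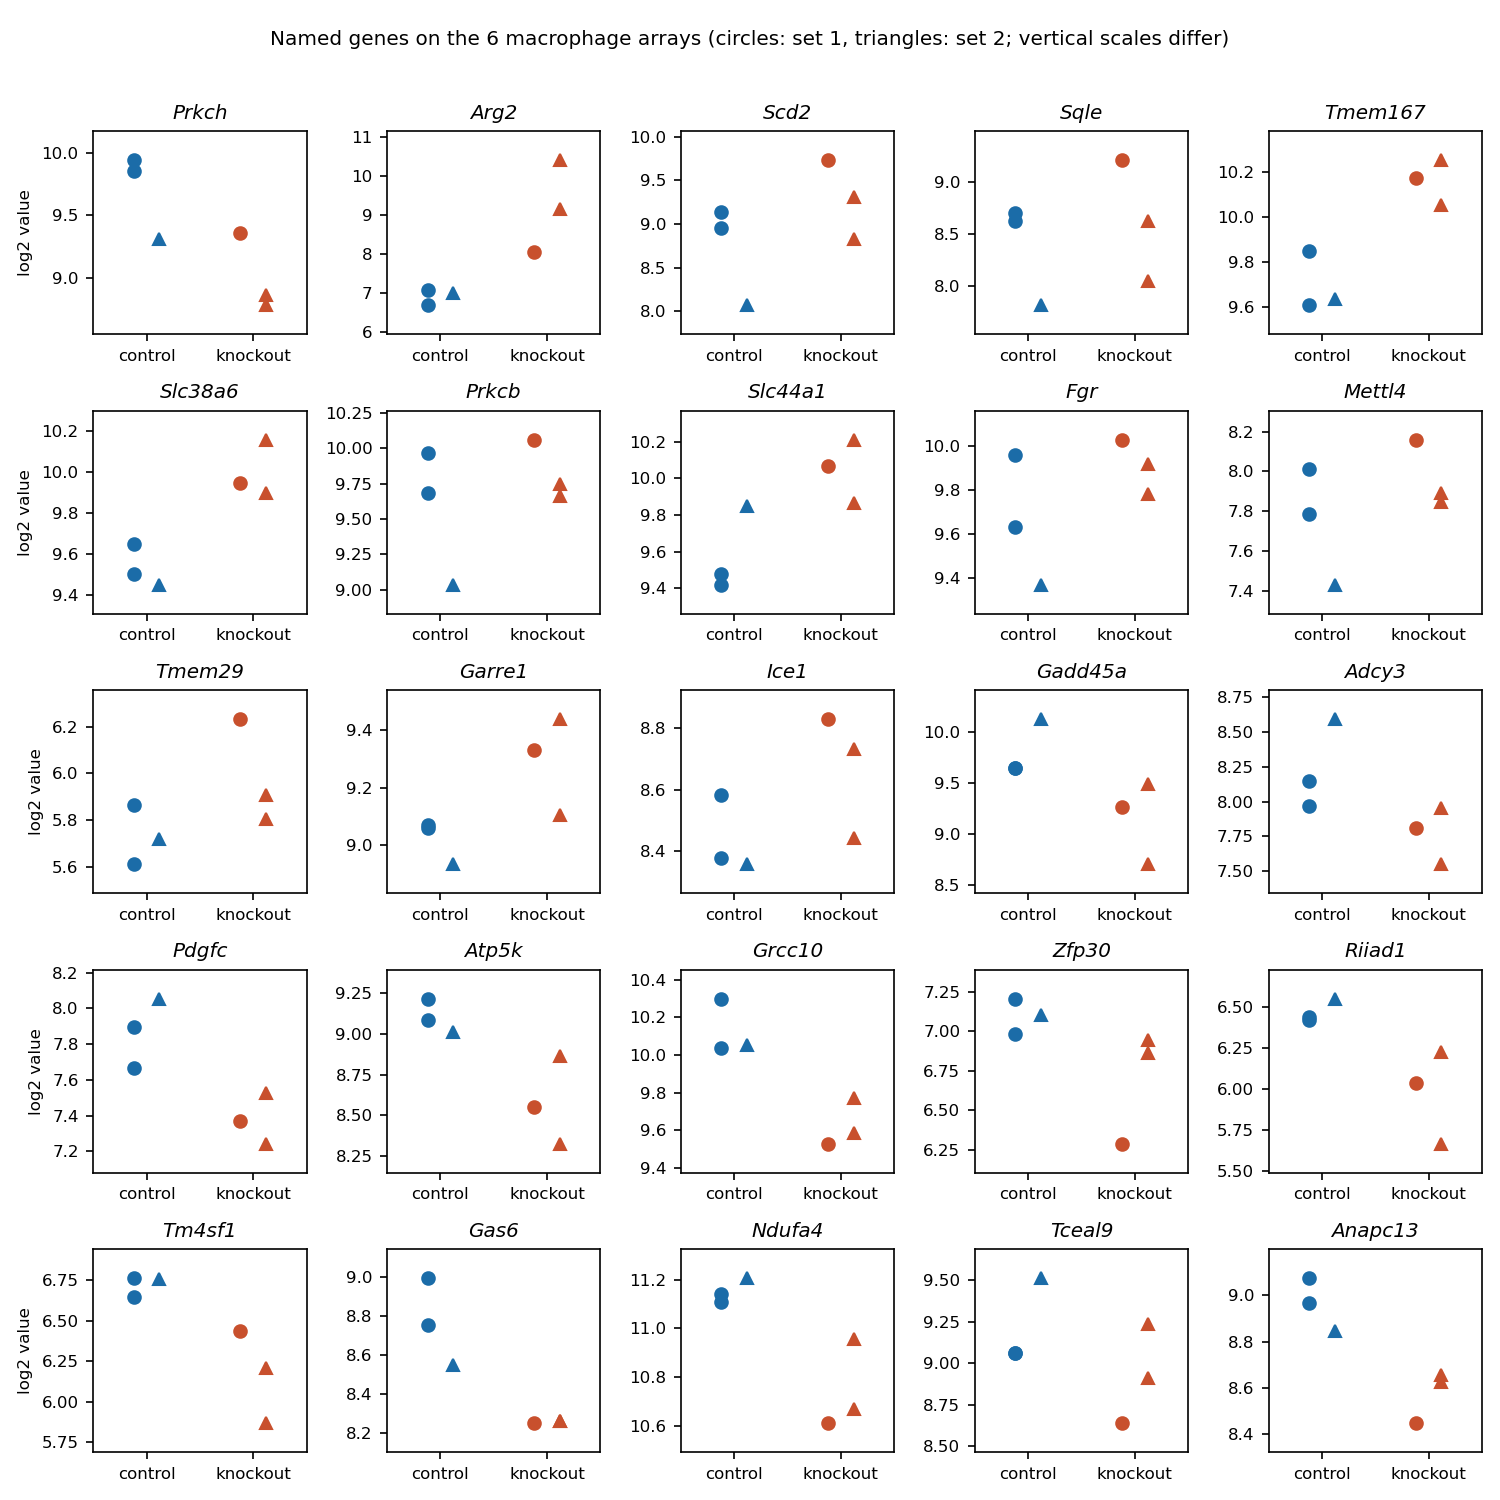
Log2 value (vertical axis, scale set per gene) of Prkch and 24 named genes on the 3 control and 3 knockout arrays, with circles for set 1 and triangles for set 2. The 24 have the largest differences in each direction among genes with an unadjusted limma p under 0.05, predicted and similar genes left out. In every panel the knockouts of a set lie on the same side of its controls, which the rule that chose the genes favours. For Arg2 the knockouts lie between 8.06 and 10.42, above controls of at most 7.10.

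**Figure D2:**
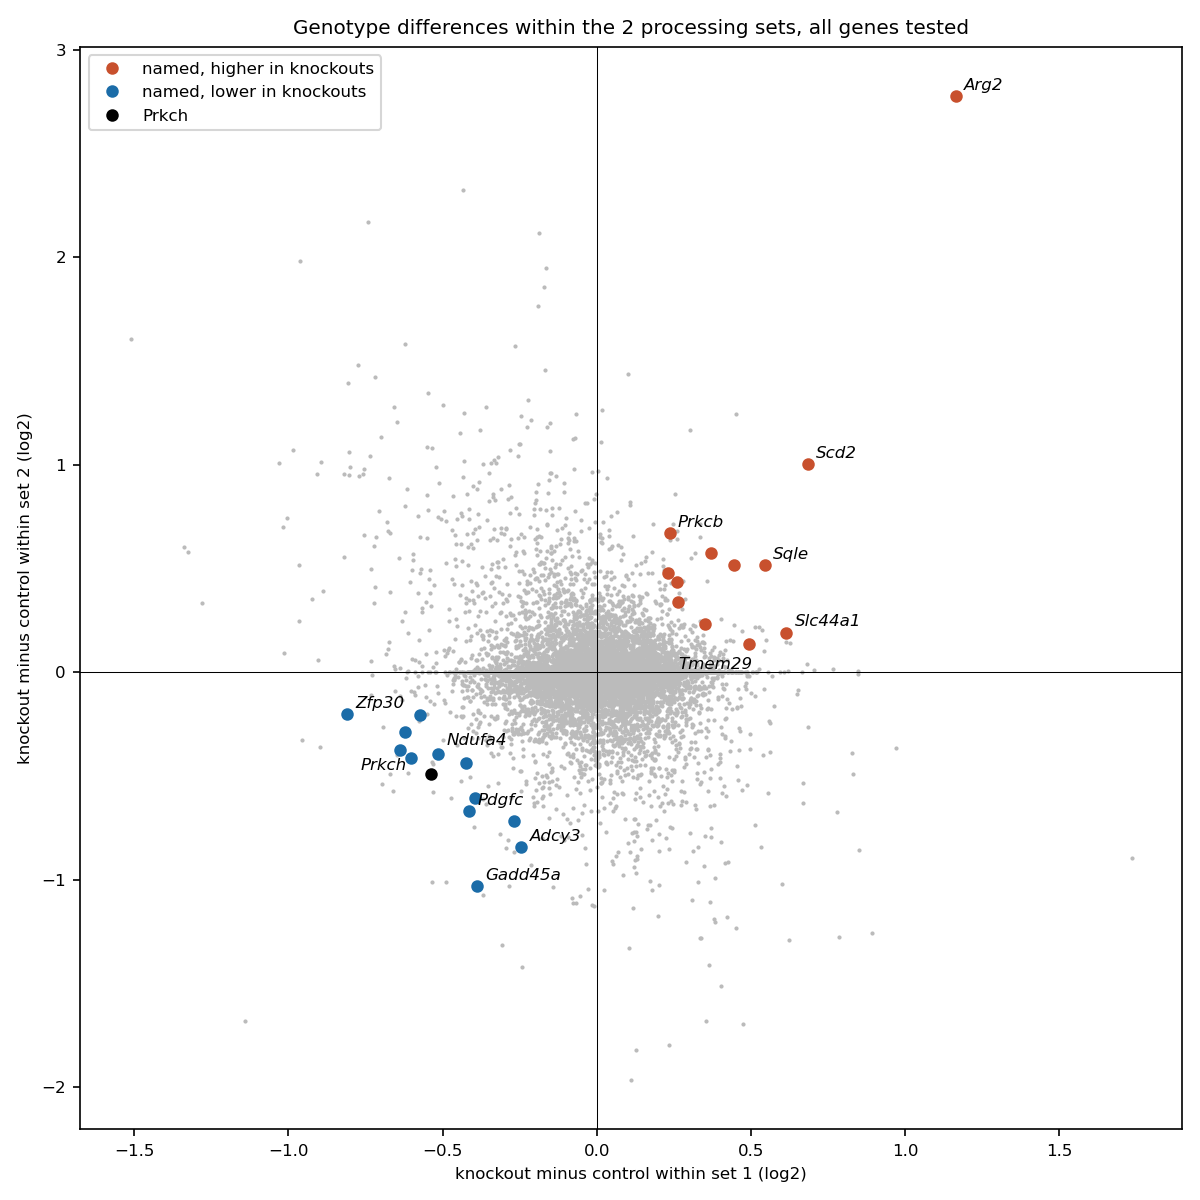
Knockout minus control (log2) within set 1, horizontal, against that within set 2, vertical, for all 15039 genes, with the named genes in colour. Named genes lie at the upper right and lower left by the rule that chose them, while over all genes 4256 differed in the same direction in both sets and 4588 in opposite directions.

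The other protein kinase C genes were examined for differences beside Prkch. Of 13 family members on the array 12 passed the filter, 9 were higher and 3 lower, Prkch among the lower ones, with a median of 0.05 against 0.01 for all genes. At an unadjusted p under 0.05 there were only Prkcb and Prkch. Prkd3, a protein kinase D, differed by 0.08, and apart from Prkch and Prkcb the members lay between -0.03 (Prkcq) and 0.14 (Prkce), both named for these extremes, and Prkce stood at -0.04 without knockout replicate 2. Of 18 genes that make, break down or sense diacylglycerol, 13 were higher and 5 lower, with a median of 0.10 and none at an unadjusted p under 0.05. Without knockout replicate 2 that median was 0.03. Plcg2, a phospholipase that releases diacylglycerol, had 9.56 and 9.54 against 9.69 in set 1 and 9.40 against 9.61 and 9.41 in set 2, a difference of 0.13 ± 0.07. Card9, the adaptor that links protein kinase C to NF-kB in myeloid cells, differed by 0.10 ± 0.07.

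Of 15 arginine and polyamine genes, Arg2 included, 8 were higher and 7 lower, with a median of 0.00, or -0.06 with no set in the model. Slc7a2, the inducible arginine transporter, had 9.29 and 9.20 against 9.41 in set 1 and 9.06 against 9.09 and 9.38 in set 2, a difference of 0.17 ± 0.09. Sat1, which acetylates polyamines for export, differed by -0.13 ± 0.07, and by -0.08 without knockout replicate 2. Arg1, the cytosolic arginase and a marker of alternative activation, had 10.96, 12.27 and 11.80 in controls and 11.63, 13.22 and 11.63 in knockouts. The genotypes overlapped, and its difference of 0.32 ± 0.60 became -0.06 without knockout replicate 2. Alternative activation genes as a list had 14 of 19 higher and a median of 0.05, which lay at 0.49 on knockout replicate 2 and at -0.17 and 0.08 on knockout replicates 1 and 3, and it was -0.04 without knockout replicate 2.

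Cholesterol synthesis genes, which the transcription factor SREBP2 controls, were mostly higher. Of 22 measured, 16 were higher and 6 lower, with a median of 0.12. With no set in the model the median was -0.01, where that of all genes was -0.04, and the differences of Sqle and Srebf2 were 0.24 and 0.18. Within both sets 6 of the 22 (27.3%) lay above their controls without overlap, against 3.71% of all genes, and 0 lay below. On all arrays of set 2, 3 of the 22 (13.6%) were tied, against 41.2% of all genes. Sqle had the smallest p. Srebf2, which encodes SREBP2 itself, had 9.80 and 9.43 in the controls of set 1 against 9.90 in their knockout, and 9.16 against 9.60 and 9.43 in set 2. Its difference was 0.32 ± 0.12, similar in both sets (0.29 and 0.35). Cyp51, the lanosterol demethylase, differed by 0.32 ± 0.15, with 8.63 and 8.25 against 8.71 in set 1 and 7.72 against 8.27 and 7.92 in set 2. Idi1, which makes the isoprene unit of the pathway and is named after its values were seen, differed by 0.48 ± 0.24. Stard4, a sterol carrier, differed by 0.22 ± 0.09 and was tied between control and knockout replicate 3.

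Fatty acid synthesis and lipid droplet genes did not shift as a list, with 15 of 29 higher, 14 lower and a median of 0.02, or -0.05 with no set in the model. Beside Scd2, the enzymes at its start were higher in both sets. Acaca, the carboxylase that makes malonyl-CoA, differed by 0.38 ± 0.20 (0.22 and 0.55), and Acly, which supplies cytosolic acetyl-CoA, by 0.32 ± 0.17 (0.20 and 0.44). Without knockout replicate 2 these became 0.23 and 0.18. The highest Acly and Acaca values belonged to that array, at 10.92 and 8.98.

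Fatty acid oxidation genes were mostly lower. Of 28 measured, 22 were lower and 6 higher, with a median of -0.08, which was -0.03 in set 1, -0.14 in set 2 and -0.05 without knockout replicate 2. Within both sets 6 (21.4%) lay below their controls without overlap, against 4.04% of all genes. Ties on all arrays of set 2 held 8 of the 28 (28.6%), against 41.2% of all genes. Acaa2, the thiolase of the last step of mitochondrial oxidation, had 9.59, 9.89 and 9.88 in controls and 9.54, 9.37 and 9.53 in knockouts. All knockouts lay below all controls, and the difference was -0.32 ± 0.12. Etfb, which passes electrons from the acyl-CoA dehydrogenases to the respiratory chain, had 9.70, 9.88 and 9.62 in controls against 9.49, 9.16 and 9.52, again with no overlap and a difference of -0.29 ± 0.12. Slc25a20, the carrier of acylcarnitine into mitochondria, differed by -0.16 ± 0.06. Angptl4, an inhibitor of lipoprotein lipase that fatty acids induce, had the largest difference of the list at -0.83 ± 0.36. It had 8.03, 8.19 and 9.03 in controls against 7.87, 7.21 and 8.02 in knockouts, without overlap, and differed by -0.24 in set 1 and -1.42 in set 2.

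Respiratory chain genes, which encode subunits of the mitochondrial electron transport complexes and ATP synthase, were lower in greater number. Of 39 measured, 35 were lower and 4 higher, with a median of -0.14, at -0.19 in set 1, -0.08 in set 2 and -0.12 without knockout replicate 2. Within both sets 15 (38.5%) lay below their controls, against 4.04% of all genes, and 0 above, against 3.71%. These shares are not alike, since 5 of the 39 (12.8%) were tied on all arrays of set 2, against 41.2% of all genes. Ndufa4, a subunit associated with cytochrome oxidase, had 11.11, 11.14 and 11.21 in controls and 10.61, 10.67 and 10.96 in knockouts. The genotypes did not overlap, and the difference was -0.45 ± 0.09 (SE, n = 3 and 3; limma, unadjusted p = 0.0057). Atp5k, of ATP synthase, had 9.09, 9.21 and 9.01 against 8.55, 8.33 and 8.87, a difference of -0.51 ± 0.17. Cox6c, of cytochrome oxidase, had 11.48, 11.48 and 11.47 against 11.12, 11.30 and 11.37, a difference of -0.25 ± 0.07. Sdhd, a membrane anchor of succinate dehydrogenase, differed by -0.22 ± 0.08 and overlapped across sets. Ndufa1, of complex I and named after its values were seen, differed by -0.55 ± 0.22. On knockout replicate 3 the median member stood at 0.00 against the control of its set, so the list median rested on knockout replicates 1 and 2, at -0.19 and -0.16.

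Ribosomal protein genes, which like many respiratory subunits are short and highly expressed, were also mostly lower in the fit, but not in set 2. Of 24 measured, 22 were lower and 2 higher, with a median of -0.12, and 5 (20.8%) lay below their controls within both sets, against 4.04% of all genes. Another 5 (20.8%) were tied on all arrays of set 2, against 41.2% of all genes. In set 1, 22 were lower and 2 higher, while in set 2, 7 were lower, 12 higher and 5 at 0. Of the respiratory chain genes, 32 were lower and 2 higher in set 2. The ribosomal median was -0.25 on knockout replicate 1 and 0.01 and -0.01 on knockout replicates 2 and 3. Rps19, of the small subunit, had 9.16, 9.08 and 9.08 in controls against 8.76, 8.65 and 8.86 in knockouts, and differed by -0.34 ± 0.07 without overlap. Rplp1, of the large subunit, differed by -0.33 ± 0.08, Rps14 by -0.32 ± 0.14 and Rps3 by -0.14 ± 0.07. The part of knockout replicate 1, whose median difference was the lowest in both lists, and of whatever ribosomal genes share with the respiratory chain was not tested.

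**Figure D3:**
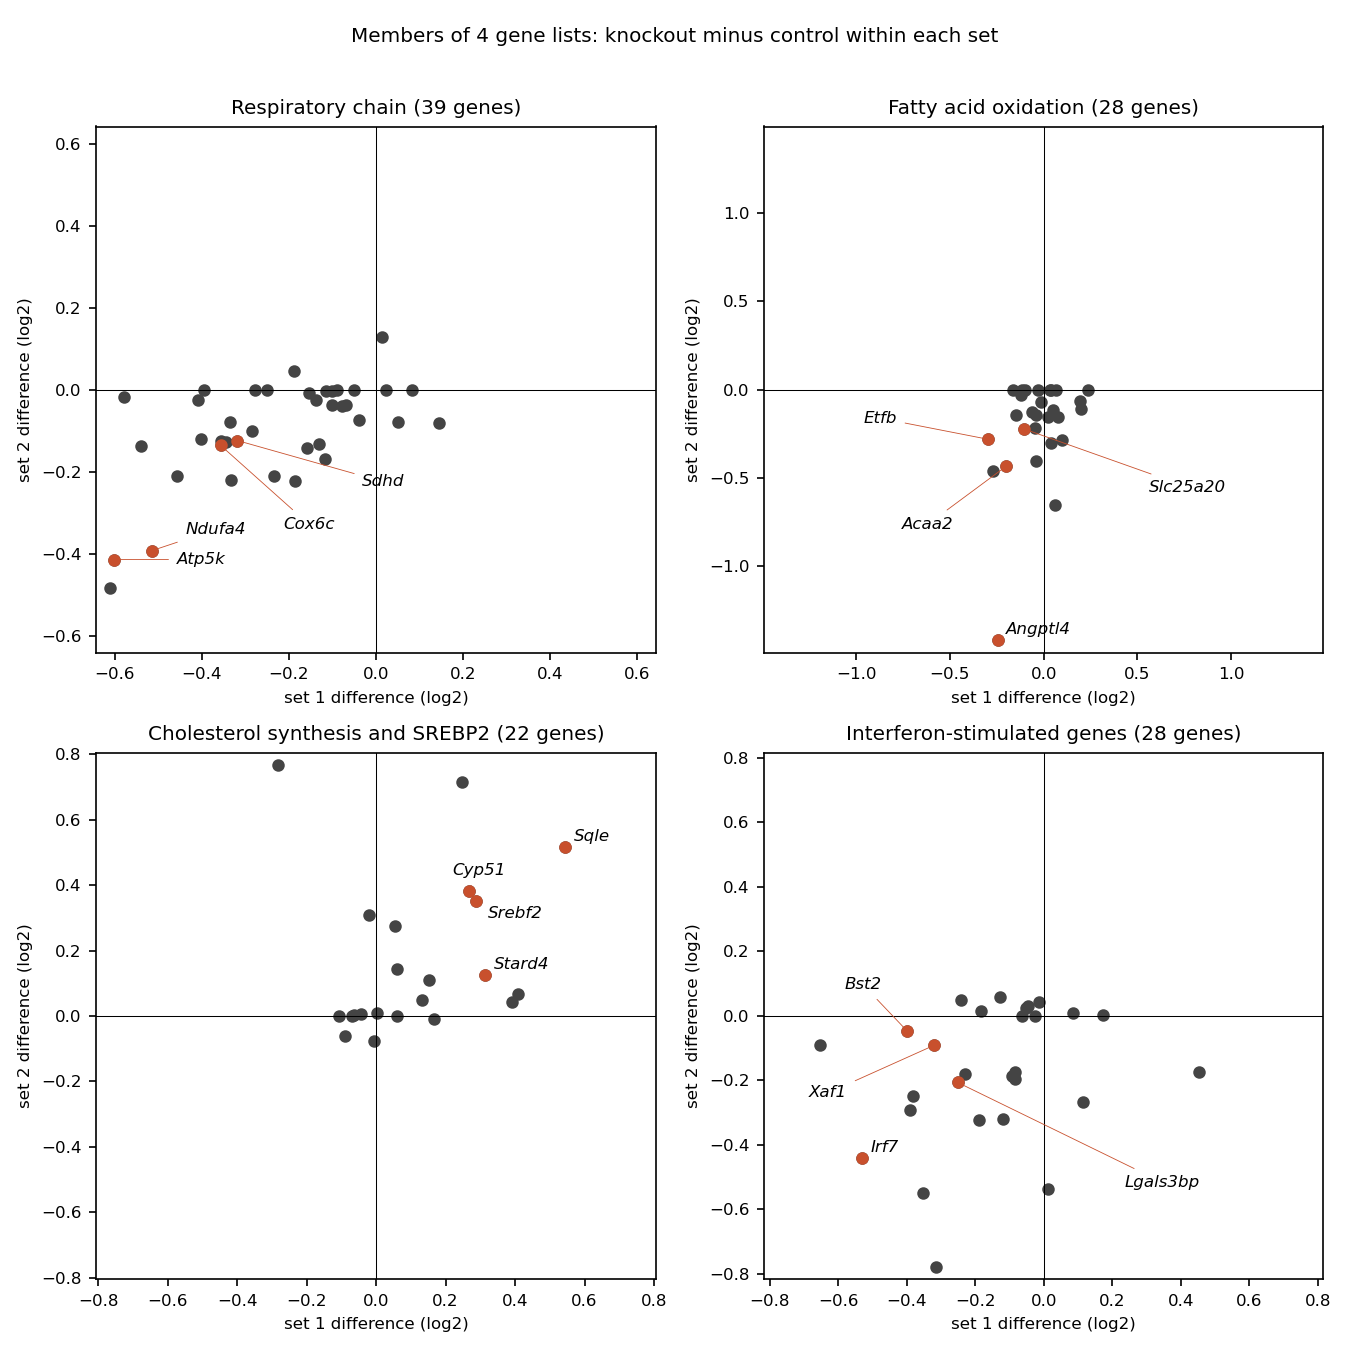
Knockout minus control (log2) within set 1, horizontal, and set 2, vertical, for each measured member of 4 lists, with the 4 members of smallest p in each list in red. Respiratory chain genes lie mostly at the lower left (15 of 39 without overlap in both sets), cholesterol synthesis genes mostly at or above 0, and 24 of 28 interferon-stimulated genes have a fitted difference below 0.

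Interferon-stimulated genes, which type I interferon switches on against viruses, were mostly lower as a list, but not on every array. The interferon signal reaches their promoters through a factor that binds a repeat of GAAA separated by a pair of bases, the response element core. RefSeq promoters (build GRCm38.p6) were at hand for 22 of the 30 genes of the list on the array, whether or not they passed the filter. GAAA, any 2 bases and GAAA again on either strand, overlaps counted, occurred in the 250 bases before the start of 9 of their 25 promoters (36%). It occurred in 978 (2.98%) of all 32851 promoters listed there. The sequences show Bst2, Oas1a and Ifit1, which each hold 2 matches, and Irf7, whose knockouts lay below all controls, which holds none. They run 5′ to 3′ on the gene's strand up to the base before the start, with the matched bases in capitals. Their positions are chr8:71537473-71537722 (minus strand) for Bst2, chr5:120907526-120907775 (minus strand) for Oas1a, chr19:34640639-34640888 (plus strand) for Ifit1 and chr7:141266425-141266674 (minus strand) for Irf7.
Bst2: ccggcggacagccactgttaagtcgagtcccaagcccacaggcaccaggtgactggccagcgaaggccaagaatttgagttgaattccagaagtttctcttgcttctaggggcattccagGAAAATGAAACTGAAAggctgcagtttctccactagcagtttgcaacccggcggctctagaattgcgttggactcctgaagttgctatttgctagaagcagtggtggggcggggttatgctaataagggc
Oas1a: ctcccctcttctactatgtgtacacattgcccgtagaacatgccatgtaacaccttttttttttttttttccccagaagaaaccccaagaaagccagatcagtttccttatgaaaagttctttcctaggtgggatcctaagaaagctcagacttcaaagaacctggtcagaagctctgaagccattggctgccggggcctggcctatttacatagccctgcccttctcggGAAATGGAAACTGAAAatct
Ifit1: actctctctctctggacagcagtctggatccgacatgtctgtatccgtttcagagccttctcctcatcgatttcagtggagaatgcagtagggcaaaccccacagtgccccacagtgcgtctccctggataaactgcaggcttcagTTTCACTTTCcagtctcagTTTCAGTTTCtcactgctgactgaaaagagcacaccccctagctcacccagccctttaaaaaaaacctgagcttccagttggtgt
Irf7: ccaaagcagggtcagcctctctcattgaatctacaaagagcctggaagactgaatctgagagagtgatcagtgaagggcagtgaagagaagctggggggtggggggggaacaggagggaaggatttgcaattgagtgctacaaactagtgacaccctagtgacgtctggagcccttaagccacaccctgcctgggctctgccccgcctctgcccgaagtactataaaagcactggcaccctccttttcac
In Bst2 and Oas1a the matches overlap on the gene's strand, while in Ifit1 both lie on the other strand and apart from each other.

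Of the 28 measured genes 24 were lower and 4 higher, with a median of -0.14, and 2 lay below their controls within both sets (7.14%, against 4.04% of all genes). Tied on all arrays of set 2 were 2 of the 28 (7.14%), against 41.2% of all genes, so the 4.04% is not a like share. Irf7, a transcription factor that amplifies the interferon response, had 9.09, 9.49 and 8.90 in controls and 8.76, 8.10 and 8.82 in knockouts. All knockouts lay below all controls, and the difference was -0.49 ± 0.23 (limma, unadjusted p = 0.0965), with -0.53 in set 1 and -0.44 in set 2. Lgals3bp, a secreted glycoprotein, had 12.42, 12.48 and 12.29 in controls against 12.20, 11.92 and 12.25, also without overlap, a difference of -0.23 ± 0.10. Bst2, which tethers budding viruses to the cell, had 9.71 and 9.55 against 9.23 in set 1, and 9.43 against 9.29 and 9.47 in set 2, where the knockouts lay on both sides of their control. Its difference was -0.22 ± 0.11, and that of Xaf1, a gene of cell death signalling, was -0.21 ± 0.09.

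Knockout replicate 2 held much of the interferon difference. The list median was -0.37 on that array, -0.12 on knockout replicate 1 and 0.07 on knockout replicate 3, and without knockout replicate 2 it was -0.04, with 20 of 28 lower. Rsad2, an antiviral enzyme named after its values were seen, had 8.64, 8.69 and 8.82 in controls and 8.35, 6.95 and 9.13 in knockouts, so that the difference of -0.55 became -0.05 without that array. Ifit1, which binds viral RNA, had 7.08, 7.0 and 7.17 in controls against 6.68, 5.94 and 7.30, and its difference went from -0.45 to -0.14. Oas1a, which senses double-stranded RNA, had 8.75, 8.88 and 8.45 against 8.59, 8.07 and 8.47, and its difference went from -0.20 to -0.12. For these 3 genes knockout replicate 3 lay above the control of its set.

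Lipid uptake and efflux genes showed no common shift. Of 21 scavenger receptor and uptake genes 10 were higher and 11 lower, with a median of 0.00. The exception at an unadjusted p under 0.05 was Fabp4, the fatty acid binding protein of adipocytes and macrophages. It had 10.82, 10.82 and 10.60 in controls and 10.40, 10.31 and 10.36 in knockouts, with no overlap. Its difference was -0.34 ± 0.05 (limma, unadjusted p = 0.0017), at -0.42 and -0.27 in the sets and -0.34 without knockout replicate 2. Of 18 cholesterol efflux genes 12 were lower and 6 higher, with a median of -0.06. Nr1h3, the liver X receptor alpha, differed by -0.35 ± 0.24 and Abcg1, a cholesterol exporter, by -0.37 ± 0.37. Both had their lowest value on knockout replicate 2, and without it the differences were -0.17 and -0.07. Apoe, deleted in both genotypes, had 9.30, 9.34 and 8.99 in controls and 9.13, 8.99 and 8.99 in knockouts, the value of set 2 being tied on all its arrays.

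Oxidative stress genes split. Of 29 measured, 13 were higher and 16 lower, with a median of -0.04, and 5 (17.2%) lay below their controls within both sets, against 4.04% of all genes. Tied genes on all arrays of set 2 were 2 of the 29 (6.9%), against 41.2% of all genes. With no set in the model the median was 0.00. Slc40a1, ferroportin, the exporter with which macrophages release iron, had 7.22 and 7.30 in the controls of set 1 against 6.98 in their knockout, and 7.61 against 7.23 and 7.31 in set 2. Both sets gave a lower knockout, and the difference was -0.31 ± 0.05 (limma, unadjusted p = 0.0022). Sod1, the cytosolic superoxide dismutase, differed by -0.28 ± 0.09 and Gpx4, which reduces lipid peroxides, by -0.27 ± 0.10. Gpx4 had 11.45, 11.60 and 11.38 in controls against 11.11, 11.15 and 11.34, without overlap. In the other direction Txnrd1, thioredoxin reductase, had 10.79, 10.77 and 10.87 in controls against 10.90, 10.94 and 10.94 in knockouts, also without overlap, a difference of 0.09 ± 0.04.

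Lysosomal genes were lower in 28 of 33, with a median of -0.07, which stood at -0.31 on knockout replicate 2 and at 0.00 on each other knockout array. Without that array it was 0.01. Lgmn, the protease legumain, had 13.56, 13.62 and 13.60 in controls and 13.50, 13.38 and 13.46 in knockouts, and differed by -0.14 ± 0.05 without overlap. Hexa, a subunit of hexosaminidase, differed by -0.20 ± 0.14, and by -0.09 without knockout replicate 2. Glycolysis and hypoxia genes had a median of 0.31 in set 1 and -0.22 in set 2, and of 0.19 without knockout replicate 2. In set 2 the median stood at -0.51 on knockout replicate 2 and at 0.00 on knockout replicate 3. Pfkl, phosphofructokinase, and Pdk1, which holds pyruvate back from mitochondria, were higher in both sets, by 0.34 ± 0.14 and 0.38 ± 0.18 in the fit.

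Genes of inflammation and cell contact gave single differences in place of list shifts. The NF-kB list had 22 of 33 higher and a median of 0.04, but 14 higher, 19 lower and a median of -0.01 without knockout replicate 2. Traf6, which relays Toll-like receptor signals, had 9.37 and 9.39 against 9.73 in set 1 and 9.14 against 9.24 and 9.33 in set 2, a difference of 0.25 ± 0.07 (limma, unadjusted p = 0.0153). Tnfaip3, which restrains NF-kB, differed by 0.16 ± 0.09. Lilrb4a, an inhibitory receptor, had 12.52, 12.52 and 12.45 in controls and 12.72, 12.78 and 12.62 in knockouts, without overlap, and differed by 0.22 ± 0.06. Siglec1, the sialoadhesin of macrophages, was lower within both sets, by -0.46 ± 0.21, and by -0.30 without knockout replicate 2.

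F10, which encodes coagulation factor X, had 11.11, 11.09 and 11.09 in controls and 11.38, 11.38 and 11.41 in knockouts. All knockouts lay above all controls, by 0.29 ± 0.04 in the fit (limma, unadjusted p = 0.0010), at 0.28 and 0.30 in the sets. Ccr2, the receptor that brings monocytes to inflamed tissue, had 9.95, 10.05 and 9.85 in controls and 10.34, 10.96 and 10.17 in knockouts, without overlap, and differed by 0.53 ± 0.24 that was 0.33 without knockout replicate 2. Over the 11 genes of monocyte-derived macrophages 7 were higher, with a median of 0.05, and over the 17 of large resident macrophages 13 were higher, with a median of 0.06. Without knockout replicate 2 both directions turned, with 5 higher and 6 lower (median -0.03) and 8 higher and 9 lower (median -0.01). In the list of large resident macrophages Fn1, fibronectin, differed by 0.73 ± 0.41 and Prg4, lubricin, by 0.85 ± 0.66, both with their highest value on knockout replicate 2, and by 0.40 and 0.32 without that array. Of the chemokines 11 were higher and 12 lower, or 7 and 16 without knockout replicate 2, among them Ccl17 (0.18 ± 0.07) and Ccl8 (-0.63 ± 0.35).

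Cell contact and proliferation genes included several that were lower. Of 26 adhesion genes, 5 (19.2%) lay below their controls within both sets and 4 (15.4%) above, against 4.04% and 3.71% of all genes. All arrays of set 2 were tied for 2 of the 26 (7.69%), against 41.2% of all genes. The median was 0.02, or -0.05 with no set in the model. Cd81, a tetraspanin, had 9.86, 9.50 and 9.73 in controls and 9.34, 9.43 and 9.26 in knockouts, without overlap, and differed by -0.36 ± 0.12. Cd151, another tetraspanin, differed by -0.26 ± 0.11, also without overlap. Itgam, the integrin chain CD11b, differed by 0.33 ± 0.22, and Csf1r, the receptor on which macrophage survival depends, by 0.32 ± 0.21. Without knockout replicate 2 these were 0.15 and 0.17. Cell cycle genes were lower in 18 of 32, with a median of -0.01, or -0.11 with no set in the model. Cenpa, the histone variant of centromeres, differed by -0.30 ± 0.11, and Tyms, thymidylate synthase, by -0.20 ± 0.09. Among heat shock genes Hspe1, a mitochondrial chaperonin, differed by -0.21 ± 0.07 and Hspa4 by 0.20 ± 0.08.

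**Figure D4:**
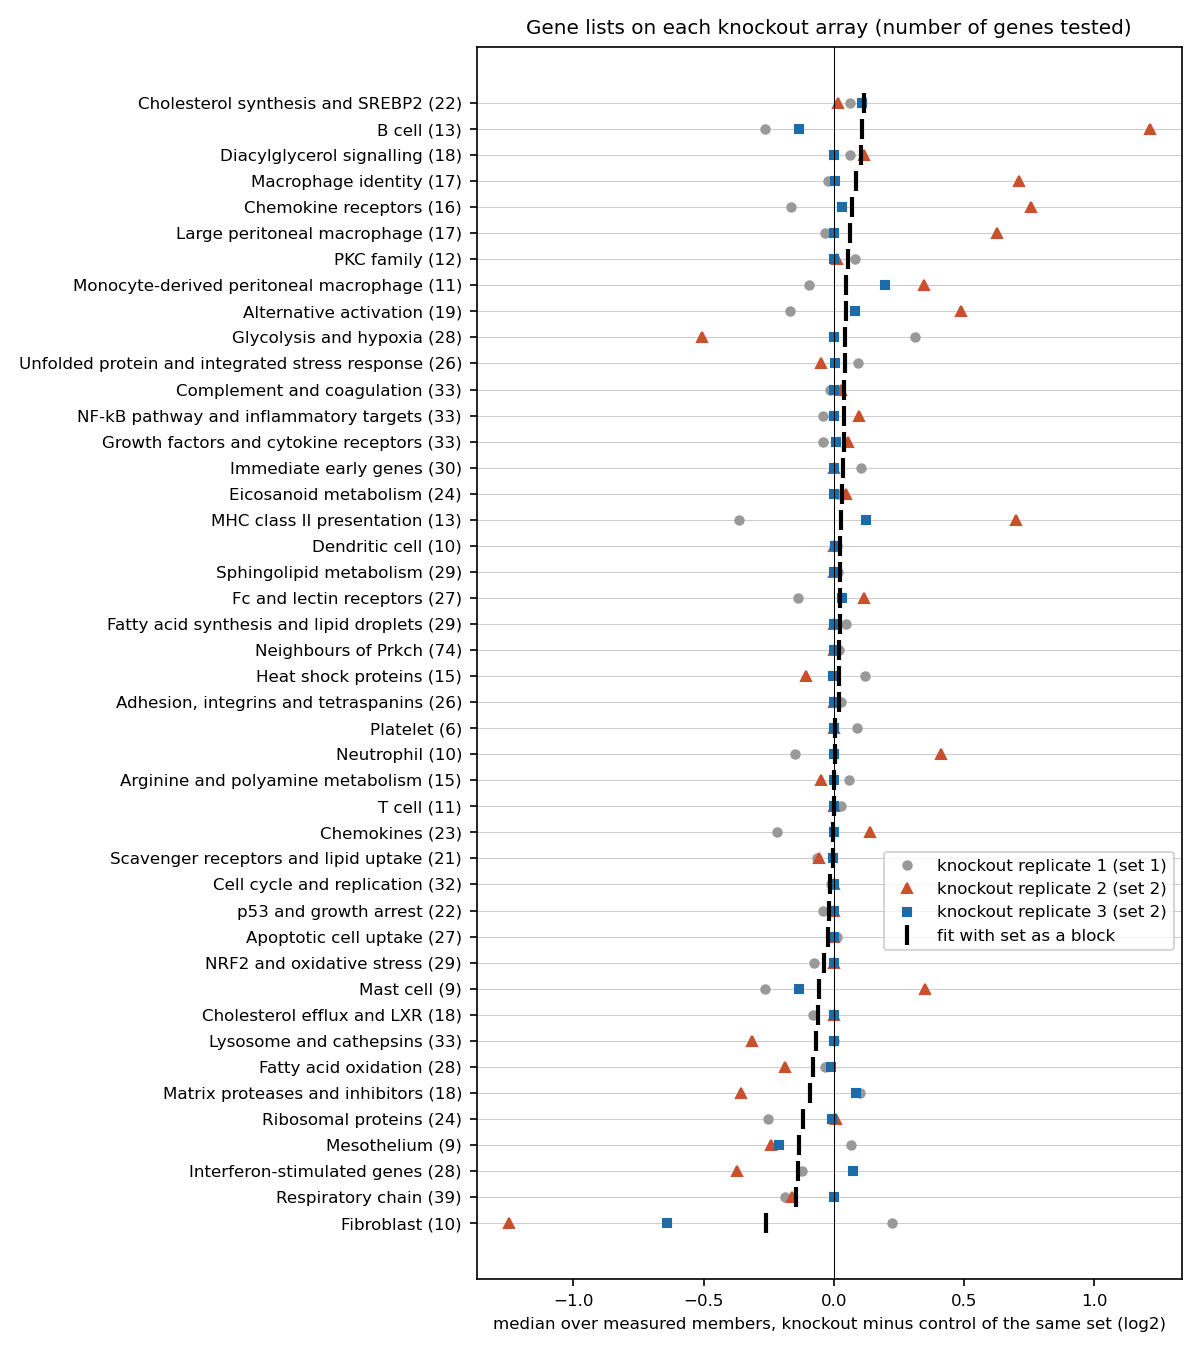
Median difference from the controls of the same set (log2, horizontal axis) over the measured members of each list, for each knockout array and for the fit. Knockout replicate 2 stands apart from the other knockouts for B cell (1.21), macrophage identity (0.71), MHC class II (0.70), lysosome (-0.31) and glycolysis (-0.51) genes.

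Markers of other peritoneal cells varied from array to array. B cell markers (13 of 14 on the array passed the filter, 10 higher) had a mean log2 level of 7.25 to 7.98 in controls and 7.29, 8.66 and 7.39 in knockouts. MHC class II genes had 9.62 to 10.03 in controls and 9.58, 10.46 and 9.75 in knockouts. Fibroblast markers (10 of 12 passed, 9 lower) had 7.62 to 8.25 in controls and 8.18, 6.82 and 7.38 in knockouts. Mesothelium markers, of the lining of the cavity (9 of 10 passed, 6 lower), had 6.83 to 7.08 in controls and 7.03, 6.46 and 6.57 in knockouts. Mast cell markers had 6.94 to 7.08 in controls and 6.56, 7.45 and 6.64 in knockouts.

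So the knockout arrays of set 2 were low in stromal markers, and knockout replicate 2 was high in B cell markers. Dcn, decorin, a matrix proteoglycan of fibroblasts, had 9.82, 8.23 and 9.40 in controls and 9.13, 6.84 and 8.02 in knockouts. It differed by 0.11 in set 1 and by -1.96 in set 2. Sparc, another matrix protein gene, differed by 0.36 and -1.68, Krt19, a keratin of mesothelium, by -0.14 and -1.03, and Upk3b, a mesothelial membrane protein, by -0.17 and -0.31. In the fit over both sets Dcn differed by -0.93, Sparc by -0.66 and Krt19 by -0.59, and without knockout replicate 2 by -0.53, -0.30 and -0.39. The median of the B cell list went from 0.11 to -0.17 without that array, that of MHC class II genes from 0.03 to -0.14, that of mast cell markers from -0.06 to -0.17 and that of fibroblast markers from -0.26 to -0.04. The part of these cells in the differences of set 2, Gas6, Pdgfc and Gadd45a included, was not tested.

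The genes next to Prkch on chromosome 12 were counted because they stay linked to a targeted allele through backcrossing. Whether their sequence differs between the genotypes was not tested. In the RefSeq order of GRCm38.p6, 74 of the 100 protein-coding genes nearest to Prkch, 50 on each side, were measured. Of these 43 were higher and 31 lower, with a median of 0.02, or 37 each way and a median of 0.00 without knockout replicate 2. At an unadjusted p under 0.05 there were 3 higher genes (of 74, against 0.552% of all genes) and 0 lower. They were Slc38a6, 3 genes before Prkch, and Tmem229b and Arg2, 36 and 39 genes after it. Tmem229b had 10.17 and 10.08 against 10.34 in set 1 and 9.57 against 9.91 and 9.97 in set 2, a difference of 0.29 ± 0.06. Vti1b, a vesicle fusion gene and the next after Arg2, differed by 0.30 ± 0.13. Hif1a, the hypoxia factor that directly follows Prkch, had 10.66, 10.80 and 10.38 in controls and 10.73, 12.06 and 10.63 in knockouts. Its difference of 0.49 ± 0.46 lay on knockout replicate 2 and was 0.11 without it. Atp6v1d, a proton pump subunit 33 genes after Prkch, was lower without overlap, by -0.49 ± 0.22, and by -0.32 without knockout replicate 2. Atp6v1d, Vti1b and Hif1a were named after their values were seen.

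**Figure D5:**
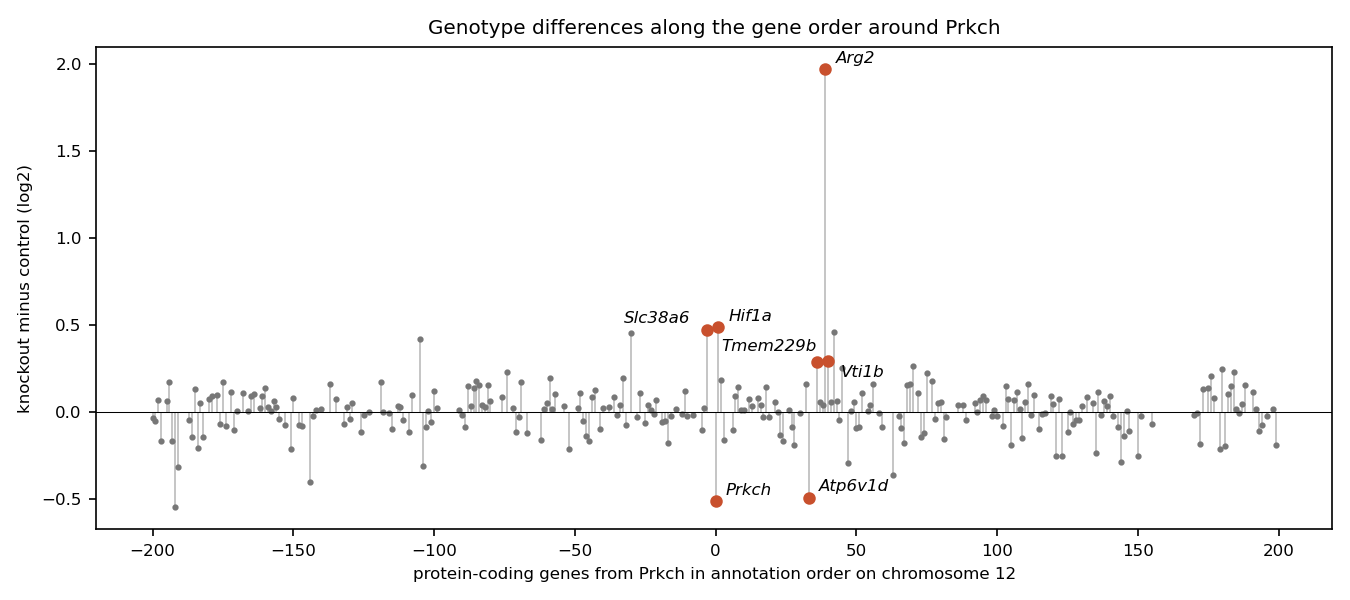
Knockout minus control (log2, vertical axis) of the measured protein-coding genes on each side of Prkch, in annotation order (horizontal axis). Arg2 stands at 1.97 and 39 positions after Prkch, Slc38a6 at 0.47 and 3 before it, and most other genes lie near 0.

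The 4 liver arrays of the same genotypes, control replicates 1 and 2 and knockout replicates 1 and 2, came from mice aged 20 weeks. They allow a test of whether a macrophage difference differs from that of liver, although sex, diet, age and feeding differ too. Over 16363 genes limma called 0 at an adjusted p under 0.05 (0%; smallest adjusted p = 0.546), and 652 (3.98%) had an unadjusted p under 0.05. Of the 5 genes with the smallest p, Scd2 was the one with a macrophage difference, at 0.84 in macrophages and -0.61 in liver, a gap of 1.45 ± 0.23 (limma, unadjusted p = 2.1e-04, adjusted p = 0.693). For Rdh16f2, Themis, Zfp991 and Mfsd2a the macrophage differences were -0.20, 0.01, -0.03 and -0.09, and the liver differences 0.97, -1.55, -1.16 and -1.05.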

How the data were processed

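The authors deposited 1 value per probe set and array for the macrophages, here taken as log2 summaries because they are small positive numbers. The submitters' processing notes name Expression Console of Affymetrix, and the sources used here give no version, algorithm or grouping of arrays for it. Ties set differences to 0 and lower the spread in set 2, which enters the prior that all genes share. Arrays sharing over 20 identical values formed a set.

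Of 35557 probe sets, 21789 had 1 gene symbol in the platform annotation and were used. The probe set with the highest mean stood for a gene, and genes were kept where that mean reached the 30th percentile over probe sets, which left 15039. Knockout minus control was fitted with the set as a block (lmFit and eBayes, limma 3.58.1, R 4.3.3), with Benjamini-Hochberg adjustment over all genes. The fit was tested on simulated data. Errors are standard errors of that fit, fold values are on the log2 scale, and the p-values measure only the spread between these arrays, whose number of 3 per genotype limits the precision.

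Named genes were Prkch, up to 12 genes per direction (called genes, or else those with an unadjusted p under 0.05 and 1 direction in both sets), up to 4 genes of smallest p per list and the 5 of smallest p between tissues. Predicted genes, pseudogenes, small RNA genes and olfactory and vomeronasal genes entered the counts without being named. The members and the gene lists were chosen with earlier results of these data known. Alternatives were other models, priors, scalings, filters and probe set rules, and leaving out each array.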

Additional observations from a re-analysis of the deposited data

How the results depend on the processing

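The counts of called genes, 0 higher and 0 lower by limma, were the same under every alternative run. The count at an unadjusted p under 0.05, 205 genes, was 105 with no set in the model, 201 with the replicate block alone (0 called, smallest adjusted p = 0.950), 595 with the replicate block together with the set (smallest adjusted p = 0.0713) and 49 among the 5081 genes without a tie. Leaving out 1 array gave from 130 (without knockout replicate 1, which leaves set 2 alone) to 1806 (without control replicate 3, which leaves set 1 alone), with 499 without knockout replicate 2 (smallest adjusted p = 0.0608) and 570 without knockout replicate 3. The Prkch difference kept its direction in all of them, from -0.70 with no set or the replicate block alone to -0.37 with the mean of its probe sets. Between tissues limma called 0 genes, and 1 without knockout liver replicate 1 (adjusted p = 0.046). Of the genes named, Rsad2 differed by 0.0105, Prkcq by 0.0273 and Prkce by -0.0954 with the replicate block together with the set, and Prkcq by 0.0327 with no set or the replicate block alone. Leaving out 1 array turned Adgre1 (from -0.0955 to 0.0249), Dcn (from -1.96 to 0.11), Sparc (from -1.68 to 0.36) Arg1 (from -0.0625 to 0.645), Prkce (from -0.0680 to 0.346) and Prkcq (from -0.0752 to 0.0234). With no set in the model the medians of cholesterol synthesis (-0.01), fatty acid synthesis (-0.05), adhesion (-0.05) and oxidative stress genes (0.00) changed sign. So did those of arginine and polyamine (0.002 to -0.062), scavenger receptor and uptake (-0.003 to 0.007) and chemokine genes (-0.002 to 0.004). The cell cycle median went from -0.01 to -0.11, and that of all genes from 0.01 to -0.04. The cause was not tested. Same-numbered arrays share an age and correlated in their deviations by 0.40, 0.03 and 0.50, and by -0.34, 0.44 and 0.58 once the set was in the model. Replicates 1 and 3 each lie within 1 set, while replicate 2 spans both. The fitted set and genotype also link the residuals of different arrays. These correlations therefore cannot decide whether the numbers pair the arrays, and the main fit did not pair them. The median standard deviation over the arrays of a set was 0.121 in set 1 and 0.0323 in set 2, where the ties lower it.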
